A study of Mus musculus with 30 samples.

Results

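Chemokines are small secreted proteins that direct the movement of leukocytes through receptors coupled to G proteins. They are divided by the spacing of the first cysteines of the mature protein into CC, CXC and CX3C types, and their genes lie partly in clusters that arose by duplication. In the colon, epithelial chemokines recruit IgA plasma cells and the lymphocytes and dendritic cells of lymphoid follicles, stromal CXCL12 retains cells that carry CXCR4, and inducible chemokines draw neutrophils and monocytes into inflamed tissue.

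The mRNA of 10 chemokine genes, chosen by name among the 46078 genes of the count table, was followed in 30 colon libraries. Of the 10, 6 encode CC chemokines (Ccl5, Ccl6, Ccl8, Ccl9, Ccl20 and Ccl28), 3 CXC chemokines (Cxcl5, Cxcl12 and Cxcl16) and 1 the CX3C chemokine Cx3cl1. Each library came from 1 C57BL/6J mouse, with 6 animals in each of 5 groups. Females and males were fed a control diet (CD F and CD M) or a high-fat diet (HFD F and HFD M) for 13 weeks and received vehicle during the last 3 weeks. A further group of HFD males received estradiol (HFD+E2 M) at 0.5 mg/kg body weight in 9 intraperitoneal injections over the same 3 weeks. Per the study's methods, the mice were 5 to 6 weeks old at the start and the females were not ovariectomized. The study also gave E2 to females, but no female group among the sequenced ones received it. The study asked how sex, HFD and E2 changed gene expression in the colon, and the colon pieces were sequenced whole. In whole tissue, fewer cells of a type and less RNA per cell cannot be told apart.

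Between 8667177 and 17243712 reads were counted on genes per library, and 26.1% to 38.0% of these were mitochondrial. The tissue label was matched by high levels of Muc2 (at least 1210 TPM in every library), the gel-forming mucin of goblet cells, and Slc26a3 (at least 107 TPM), the chloride-bicarbonate exchanger of surface colonocytes. In 6 libraries, 4 of HFD F and 2 of HFD M, 14 markers of squamous epithelium such as keratins Krt5 and Krt14 summed to 124 to 1488 TPM, against at most 14.5 TPM in the other 24. Results that moved most without these 6 libraries are given both ways.

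The cysteines that define each type were read from the coding sequences (GRCm38, GENCODE M21), and 5 members in which a difference between groups or the type itself is at issue are shown. Each line holds the codons of the first cysteines in capitals, with 12 coding bases on either side, 5′ to 3′ on the coding strand.
Ccl6: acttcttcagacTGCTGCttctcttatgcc
Ccl20: agcaactacgacTGTTGCctctcgtacata
Cxcl5: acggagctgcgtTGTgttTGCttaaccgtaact
Cxcl16: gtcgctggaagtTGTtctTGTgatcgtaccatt
Cx3cl1: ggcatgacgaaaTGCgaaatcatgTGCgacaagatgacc
The cysteine codons are adjacent in Ccl6 (chr11:83589374-83589403, minus strand, exon 3 of 4) and in Ccl20 (chr1:83117801-83117830, plus strand, exon 2 of 3). They are 1 codon apart in Cxcl5 (chr5:90759715-90759747, plus strand, exon 2 of 4) and Cxcl16 (chr11:70459115-70459147, minus strand, exon 2 of 5), and 3 codons apart in Cx3cl1 (chr8:94778039-94778077, plus strand, exon 2 of 3). The coding sequences of Cxcl16 (738 bases) and Cx3cl1 (1185 bases) are longer than those of the other 8 members (273 to 396 bases). Both proteins are made as membrane-anchored forms from which the chemokine can be shed.

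The levels differed widely between the genes. By the median TPM over the 30 libraries, which is scaled to gene length, the order was Ccl28 (43.8), Ccl6 (33.4), Cx3cl1 (22.2), Cxcl12 (10.2), Cxcl16 (5.52), Ccl20 (3.45), Ccl9 (2.95), Ccl8 (1.32), Cxcl5 (0.541) and Ccl5 (0.265). Cx3cl1 was above Cxcl12 in 30 of 30 libraries and Cxcl12 above Cxcl16 in 29, so these steps of the order held in nearly every animal. By contrast, Ccl8 was above Cxcl5 in 16 libraries, Ccl20 above Ccl9 in 18 and Cxcl5 above Ccl5 in 20, and these neighbours were not separated.

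The spread between animals also differed between the genes. Ccl28, the epithelial ligand of CCR10 that attracts IgA plasma cells, lay between 30.2 and 69.0 TPM in all 30 libraries. Its group means were 45.4 ± 6.93 TPM in CD F, 43.7 ± 9.32 in CD M, 49.9 ± 6.27 in HFD F, 53.3 ± 12.7 in HFD M and 40.3 ± 8.64 in HFD+E2 M (SD, n = 6). Cx3cl1, the membrane-bound ligand of the CX3CR1 of resident macrophages, varied as little, with group means from 20.4 ± 3.17 TPM in HFD M to 24.1 ± 3.72 in HFD F. Cxcl16 varied 2.42-fold between the lowest and the highest library and Ccl9 3.20-fold, while Ccl6 varied 5.82-fold and Cxcl12 6.57-fold. Cxcl5, the epithelial ligand of the neutrophil receptor CXCR2, had a coefficient of variation of 117% in HFD F and 142% in HFD M, and the low genes Ccl8 and Ccl5 reached 168% in CD F and 167% in HFD+E2 M.

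**Figure D1:**
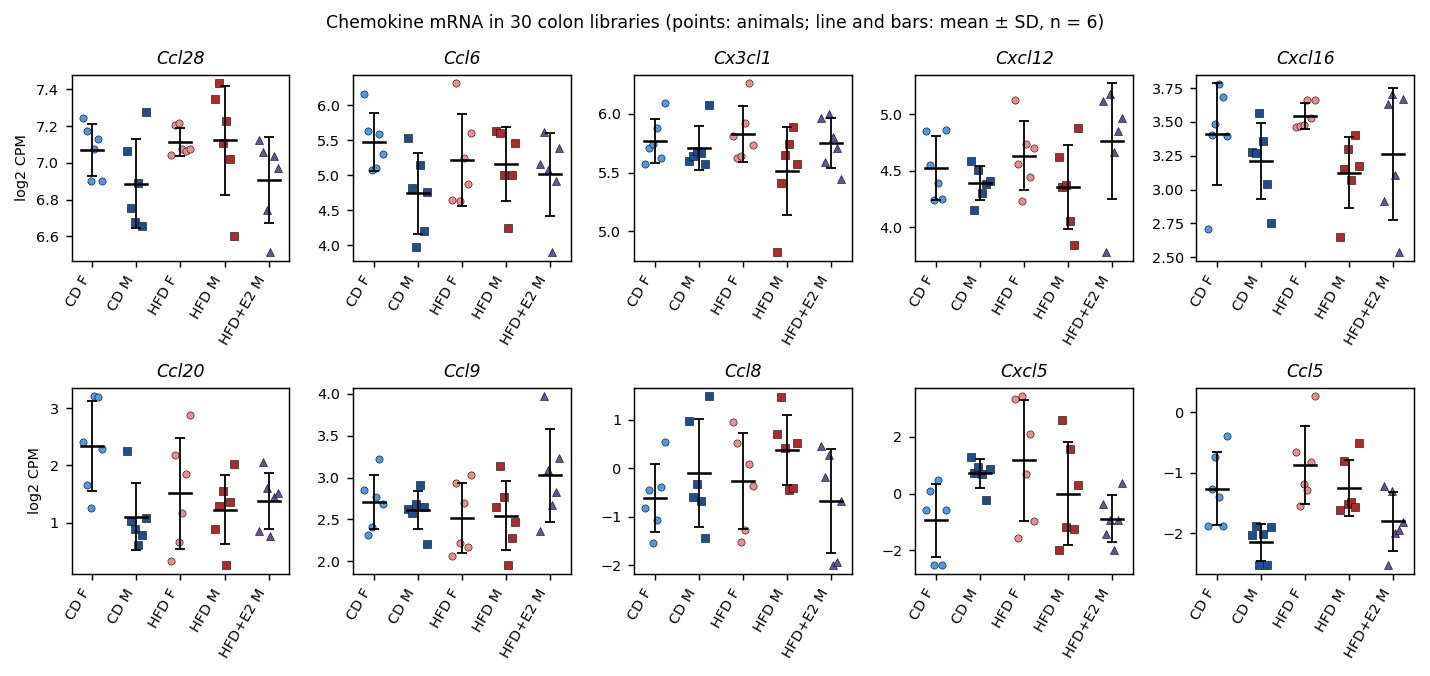
Log2 CPM (counts scaled to library size, prior count 2) of the 10 chemokine genes in the 30 libraries, with a panel for each gene in the order of median TPM, each with its own vertical scale; points are animals and the line and bars are the mean ± SD (n = 6 per group). Ccl20 and Ccl6 sit higher on average in CD F than in CD M, where 1 male has a Ccl20 level among the females', the 6 HFD F animals sit above the 6 HFD M animals for Cxcl16, and Cxcl5 is spread widely in both HFD groups given vehicle.

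The receptors of these ligands were also detected, at lower levels. By median TPM over the 30 libraries, the scavenger receptor Ackr3, which binds CXCL12, stood at 5.57, the signalling receptor Cxcr4 at 2.48, Cx3cr1 at 1.87 and Ccr1, a receptor for CCL6 and CCL9, at 1.81. Ccr6, the receptor for CCL20, stood at 0.897, and Cxcr6, the receptor for CXCL16, at 0.562. Ccr10 had no count in 21 libraries and Cxcr2 none in 22, so the receptor partners of Ccl28 and Cxcl5 were at the limit of detection. The metalloproteases Adam10 (median 34.9 TPM) and Adam17 (13.7 TPM), which shed CX3CL1 and CXCL16 from the cell surface, were higher than either receptor.

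The comparison of the sexes on the control diet had 3 chemokine differences by the study's threshold. A differentially expressed gene (DEG) was a gene with an edgeR p-value below 0.05 before adjustment and a change of more than 0.4 on the log2 scale. By this threshold, 3 of the 8 members tested were DEGs between CD F and CD M, against 9.15% of the 14922 genes tested. Ccl20 and Ccl6 were higher in females and Cxcl5 was lower. None passed a Benjamini-Hochberg adjusted p-value of 0.05 over all genes, which 2.92% of the genes did. Ccl5 and Ccl8 had too few counts to be tested.

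Ccl20, the CCR6 ligand that the epithelium over lymphoid follicles is known for, ranged from 3.01 to 11.8 TPM in CD F (median 7.94) and from 1.09 to 7.94 TPM in CD M (median 2.08). CD M replicate 1 stood at 7.94 TPM, the other 5 males reached at most 3.04 TPM, and only 1 of the 6 females lay that low. In counts, the females had 26 to 91 and the males 16 to 64. The fold change was 2.51 (log2 1.32, SE 0.38, 95% interval 0.52 to 2.13, edgeR p = 0.0030, adjusted p = 0.0734), with p = 0.0152 when the log2 CPM values were permuted exactly over the animals (two-sided, here called the exact permutation test). Without CD M replicate 1 the log2 fold change rose to 1.70 and the adjusted p-value fell under 0.05, as it also did without CD F replicate 3 and with DESeq2 (adjusted p = 0.0119).

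Ccl20 moved together with markers of lymphoid follicles. The 10 B cell and follicle markers, such as Cd79a, Cd79b and Cr2, summed to between 16.7 and 72.8 TPM in CD F and between 1.62 and 58.2 TPM in CD M. The highest CD M value, 58.2, belonged to replicate 1, the male with the highest Ccl20, and the other 5 males had at most 10.4 TPM. All 10 B cell and follicle markers had a positive log2 fold change and 5 were DEGs (median log2 fold change 1.34, against 0.01 over all genes). The 6 M cell markers summed to 124 to 146 TPM in CD F and 128 to 175 TPM in CD M, and of the 5 tested, 4 had a positive log2 fold change (median 0.13) and 2 were DEGs. Gp2, the receptor for bacteria on mature M cells, was raised in females (log2 fold change 3.64, SE 0.87, adjusted p = 0.0404), and so was the M cell transcription factor Spib (1.98, SE 0.54, adjusted p = 0.0680) by the unadjusted threshold. Spib is also expressed by B cells. With a score of the B cell and follicle markers as a covariate, the log2 fold change of Ccl20 was 0.67 (adjusted p = 0.724) and no longer passed, and with a score of smooth muscle markers it was 0.53 (adjusted p = 0.653). Beyond these covariates the part of the markers in the difference was not tested.

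Over the 30 libraries, with each group's mean removed, Ccl20 was also correlated with the mean of the M cell markers (Pearson's r = 0.77, Spearman's rho = 0.76) and with that of the B cell and follicle markers (r = 0.69, rho = 0.68). Leaving out the 2 libraries farthest from the median of the marker score gave r = 0.76 and r = 0.60, and leaving out the 6 with squamous markers r = 0.69 and r = 0.63. The gene most like Ccl20 among 13714 compared was Il22ra2 (r = 0.80, rho = 0.80), which encodes the soluble IL-22 binding protein made by dendritic cells. These correlations describe animals that share tissue composition and depth, and carry no test.

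**Figure D2:**
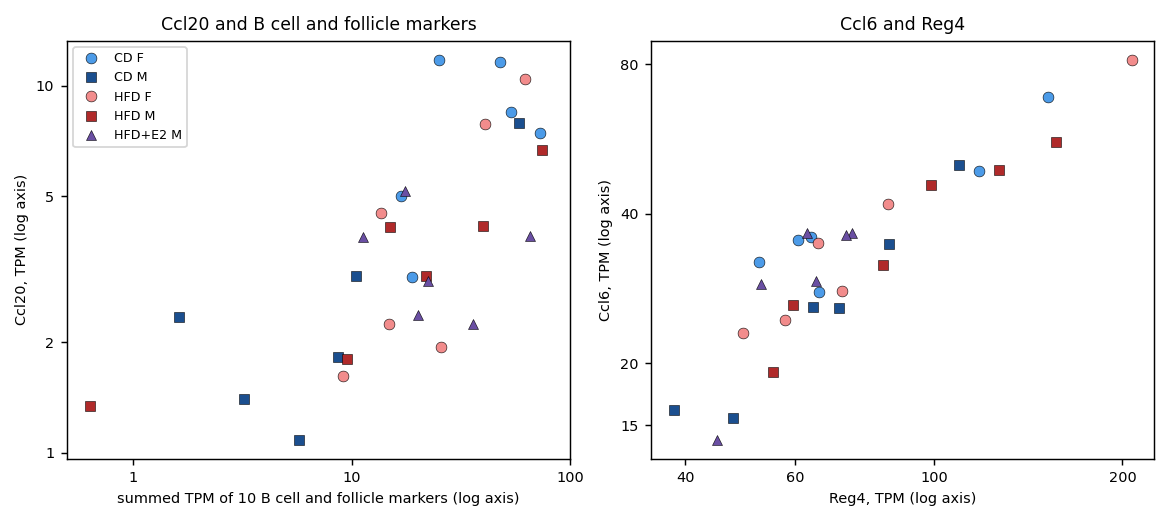
Left, Ccl20 against the sum of 10 B cell and follicle markers, and right, Ccl6 against Reg4, in TPM on log axes, with a point for each of the 30 libraries and colour and shape for the group. The libraries with over 7 TPM of Ccl20 all have over 20 TPM of the B cell markers, and Ccl6 follows Reg4 along 1 line through all 5 groups.

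Ccl6, a CC chemokine of rodents that attracts macrophages, ranged from 27.8 to 68.7 TPM in CD F (median 35.6) and from 15.5 to 50.1 TPM in CD M (median 25.9). The groups overlapped. The fold change was 1.61 (log2 0.69, SE 0.25, 95% interval 0.16 to 1.22, edgeR p = 0.0150, adjusted p = 0.183), with p = 0.0281 in the exact permutation test. The log2 fold change was 0.27 with the B cell and follicle score as a covariate and 0.07 with a smooth muscle score, and Ccl6 passed the DEG threshold in neither fit. It also missed the threshold in limma on log2 TPM with 0.1 added (log2 difference 0.61, adjusted p = 0.414). All 8 smooth muscle markers, such as Myh11 and Actg2, were DEGs with lower levels in CD F (median log2 fold change fell by 0.63), and their summed level was 2480 to 3856 TPM in CD F and 3923 to 6572 TPM in CD M.

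The variation of Ccl6 was shared with an epithelial gene. Reg4, a lectin of secretory cells deep in the colonic crypt, was the gene most like Ccl6 over the 30 libraries within groups (r = 0.91, rho = 0.95, and r = 0.88 without the 2 farthest libraries), followed by Gm1123 and Tspan3 (r = 0.88 for both). Ccl6 also rose with the surface colonocyte markers (r = 0.66, rho = 0.67) and fell with the smooth muscle markers (r = -0.72, rho = -0.70), and it was only weakly related to the macrophage markers (r = 0.30, or 0.17 without the 6 libraries with squamous markers). Among the members, Ccl6, Ccl9 and Ccl20 were correlated over the 30 libraries, with r = 0.58 for Ccl6 and Ccl9, 0.56 for Ccl6 and Ccl20 and 0.61 for Ccl9 and Ccl20. Without the 6 libraries with squamous markers these were 0.35, 0.33 and 0.52, below the 0.59 of Ccl6 and Ccl28, while that of Ccl6 and Reg4 was 0.87. Ccl9 and Ccl6 are neighbours on chromosome 11, 9245 bases apart, whereas Ccl20 is on chromosome 1.

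The 250 bases before the start sites (GRCm38.p6, RefSeq) are shown for Ccl20 and Ccl9, the 2 members with a match to the NF-kB motif. The match, read on both strands, is in capitals.
Ccl20: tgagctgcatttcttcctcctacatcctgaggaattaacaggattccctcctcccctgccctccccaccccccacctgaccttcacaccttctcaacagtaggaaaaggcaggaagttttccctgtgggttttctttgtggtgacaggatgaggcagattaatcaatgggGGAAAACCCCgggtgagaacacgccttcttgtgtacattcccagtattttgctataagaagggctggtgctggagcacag
Ccl9: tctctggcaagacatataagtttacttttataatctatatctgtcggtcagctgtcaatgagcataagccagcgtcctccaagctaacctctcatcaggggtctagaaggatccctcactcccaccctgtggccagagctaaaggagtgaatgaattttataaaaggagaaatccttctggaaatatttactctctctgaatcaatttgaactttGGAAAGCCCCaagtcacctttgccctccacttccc
The Ccl20 stretch is chr1:83116516-83116765 on the plus strand with the match at -80 to -71 from the start site, and the Ccl9 stretch is chr11:83578637-83578886 on the minus strand with the match at -35 to -26. The motif was found in 2 of the 7 members with a stretch and in 7.25% of 32851 such stretches of the genome. The full estrogen response element GGTCANNNTGACC was in 0 of the 7 and in 0.0639% of all. A match of letters is a description and says nothing about binding. Within groups, the correlation with the mean of the listed NF-kB targets and inducing cytokines was 0.12 for Ccl9 and 0.11 for Ccl20. Without the 6 libraries with squamous markers it was 0.38 and 0.57. Whether the motif has a part in the shared variation of Ccl9 and Ccl20 was not tested.

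Cxcl5 was the member that was lower in CD females, with 0 to 12 counts (median 5) in CD F and 7 to 32 (median 18) in CD M. The groups overlapped, and 2 females had no count at all. The log2 fold change was -1.59 (SE 0.52, 95% interval -2.69 to -0.49, edgeR p = 0.00755, adjusted p = 0.127), with p = 0.0108 in the exact permutation test. The squamous markers stayed at 14.5 TPM or less in these 12 libraries, and the log2 fold change was -1.56 with the squamous score as a covariate. With all 30 libraries in one fit it was -1.58 (adjusted p = 0.524) and did not pass the DEG threshold.

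Among the members that were not tested by edgeR, Ccl5, a chemokine made by T cells and NK cells, had 1 to 6 counts in each CD female and 0 or 1 in each CD male. In counts the groups met at 1, and they lay apart in log2 CPM, as 2.16% of the genes tested did, only through the library sizes, so no test is read from it. The 6 females had 18 counts in all and the 6 males 4. DESeq2, and edgeR without a filter on low counts, called Ccl5 a DEG on these counts, with an adjusted p of 0.227 from edgeR and none from DESeq2. Ccl28, Cx3cl1, Cxcl12, Cxcl16 and Ccl9 did not pass the threshold, with 95% intervals that lay within -0.25 to 0.58 on the log2 scale.

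The other genes of the pathway moved in both directions between CD F and CD M. Of 28 other chemokines, 8 were tested and 4 were DEGs, with Ccl11 (log2 fold change -0.79, adjusted p = 0.162), Ccl24 (-0.64) and Cxcl14 (-0.56) lower in females and Cxcl13, the chemokine of B cell follicles, higher (0.53, adjusted p = 0.288). Of the 6 receptors tested, Cxcr4 was a DEG and higher in females (0.92, SE 0.35, adjusted p = 0.197). Of 8 atypical receptors and proteases, Ackr3 (-0.61, SE 0.12, adjusted p = 0.0112), Ackr4 (-1.13, SE 0.24, adjusted p = 0.0168) and Ackr2 (-0.73, adjusted p = 0.198) were DEGs, all lower in females. Dpp4, the protease that trims and inactivates CXCL12, was slightly higher in females (0.36, adjusted p = 0.0393), below the fold change minimum. Cxcl12 itself, made by stromal cells, had a log2 fold change of 0.15 (95% interval -0.11 to 0.41), while 4 of 6 fibroblast markers were DEGs and lower in CD F.

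**Figure D3:**
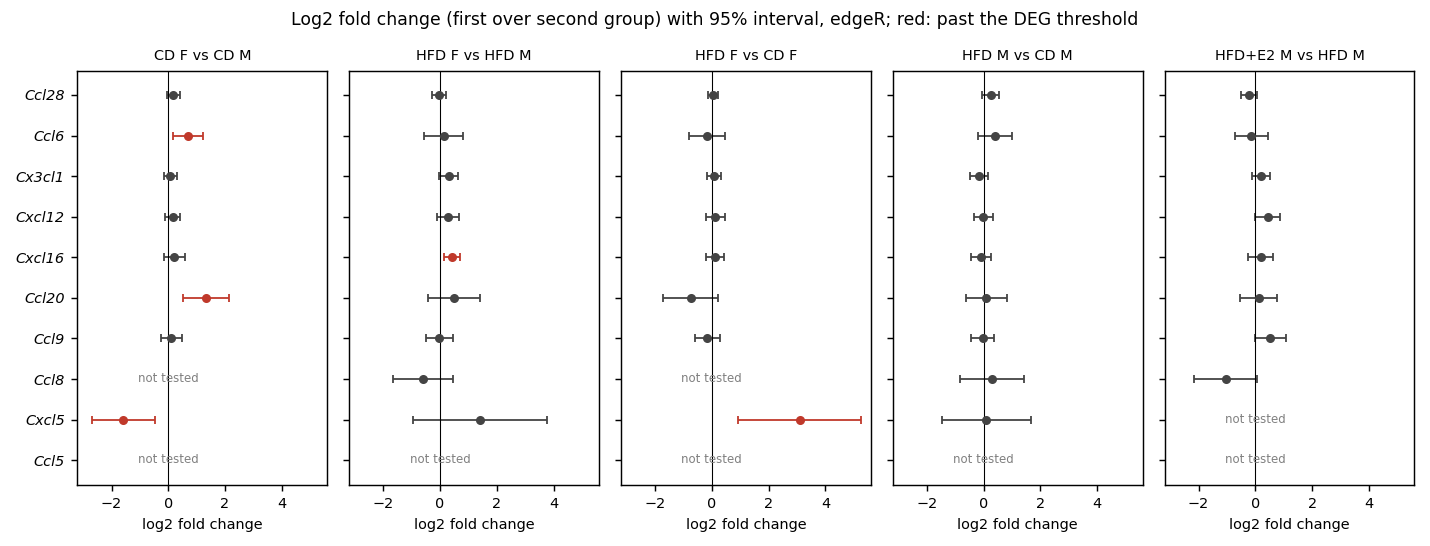
Log2 fold change (first over second group) of each chemokine gene in the 5 comparisons with its 95% interval from edgeR (6 against 6 animals); red marks genes past the DEG threshold, and genes marked not tested had too few counts. The intervals are narrow for Ccl28 and Cx3cl1 and wide for Cxcl5 and Ccl8, and the 5 red points are Ccl6, Ccl20 and Cxcl5 in CD F vs CD M, Cxcl16 in HFD F vs HFD M and Cxcl5 in HFD F vs CD F.

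Between HFD F and HFD M, 1 of the 9 members tested was a DEG, against 3.09% of 15179 genes, and none passed the adjusted threshold, which 0.0988% did. Cxcl16, which is both a ligand of CXCR6 and a scavenger receptor for oxidized lipoprotein, had 116 to 157 counts (median 135.5) in HFD F and 80 to 126 (median 88.5) in HFD M. In log2 CPM the 6 females lay above the 6 males, as for 0.376% of the genes tested in either direction. The fold change was 1.33 (log2 0.41, SE 0.14, 95% interval 0.12 to 0.70, edgeR p = 0.00817, adjusted p = 0.872), with p = 0.00216 in the exact permutation test.

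The difference of Cxcl16 was close to the fold change minimum. It dropped below it without HFD F replicate 4 (log2 fold change 0.39), without HFD F replicate 6 (0.39), without HFD M replicate 1 (0.33) and without HFD M replicate 4 (0.399). In TPM the groups overlapped, at 5.05 to 6.41 in HFD F and 3.94 to 6.93 in HFD M, and limma on log2 TPM with 0.1 added gave a log2 difference of 0.25 (adjusted p = 0.943). Without the 6 libraries that held squamous markers the log2 fold change was 0.41 (SE 0.27) and did not pass, with 2 females and 4 males left.

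Cxcl16 varied with macrophage genes. The gene most like it within groups was Cd68, a lysosomal protein of macrophages (r = 0.75, rho = 0.77, and r = 0.80 without the 2 farthest libraries), followed by Lgmn (r = 0.73) and the complement gene C1qc (r = 0.71). Its correlation with the mean of the 10 macrophage markers was 0.63 (rho = 0.71). The macrophage markers themselves summed to 140 to 223 TPM in HFD F and 120 to 229 TPM in HFD M, and 1 of the 10, Cd14, was a DEG and higher in HFD F (log2 fold change 0.42, adjusted p = 0.872). With the macrophage score as a covariate, the log2 fold change of Cxcl16 was 0.36 (SE 0.13), below the fold change minimum.

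The sex differences of Ccl20 and Ccl6 seen on CD were smaller in the HFD groups, but the change itself did not pass a test. On HFD, Ccl20 had a log2 fold change of 0.48 (95% interval -0.43 to 1.399) and Ccl6 one of 0.13 (-0.56 to 0.81). The sex by diet interaction over 24 libraries was -0.84 for Ccl20 (SE 0.61, adjusted p = 0.792) and -0.57 for Ccl6 (SE 0.43, adjusted p = 0.795). Without the 6 libraries with squamous markers, 2 HFD females and 4 HFD males were left. The HFD sex difference was then 1.11 for Ccl20 (SE 0.37) and 0.69 for Ccl6 (SE 0.25). Both were DEGs but not past the adjusted threshold, and the interactions were -0.21 and 0.01. The 2 females left, replicates 2 and 6, were the highest of their group for both genes, at 7.86 and 10.4 TPM of Ccl20 and 81.6 and 41.8 TPM of Ccl6. No sex difference on HFD is therefore read from this fit. Ccl9 went from -0.02 to 0.42 (SE 0.27) and did not pass. Of the other pathway genes, Ackr4, a scavenger of homeostatic CC chemokines, was a DEG and lower in HFD F (log2 fold change -1.20, SE 0.25, adjusted p = 0.126), and 0 of 8 other chemokines and 0 of 8 receptors tested were DEGs.

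HFD in females changed 1 of 8 members tested by the DEG threshold, against 3.67% of 15061 genes, and 0 by the adjusted threshold, which 0.0199% passed. Cxcl5 had 2 to 128 counts in HFD F (median 30) and 0 to 12 in CD F (median 5). The log2 fold change was 3.09 (SE 0.9996, 95% interval 0.92 to 5.27, edgeR p = 0.00917, adjusted p = 0.563), but the groups overlapped and the exact permutation p was 0.0736. Only some HFD females were high, at 128, 120, 42 and 18 counts, and the other 2 had 4 and 2.

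The high values of Cxcl5 were those of libraries with squamous epithelium markers. The 4 HFD females with 18 to 128 counts were the 4 with squamous markers between 275 and 1488 TPM, and the 2 HFD males over 100 TPM of these markers, at 124 and 550, had 30 and 59 counts against 1 to 10 in the other 4. Without the 6 libraries, the log2 fold change of Cxcl5 for HFD in females was -0.98 (SE 1.12), and with the squamous score as a covariate it was -0.92 (SE 1.10), so the positive sign was lost in both. In males, the log2 fold change for HFD moved in the same way, from 0.10 (SE 0.72) with all 12 libraries to -2.01 (SE 0.52, adjusted p = 0.492) with 4 HFD M libraries. The sex by diet interaction of Cxcl5, 2.98 (SE 1.31, adjusted p = 0.703), was the only DEG of 9 members tested for it, against 5.18% of 15800 genes, and was 1.0045 (SE 1.32) without the 6 libraries. It was also lost on leaving out 1 of 6 single libraries (CD F replicates 3 and 5, CD M replicate 1, HFD F replicates 1 and 3 and HFD M replicate 3), with log2 values from 2.51 to 2.83.

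**Figure D4:**
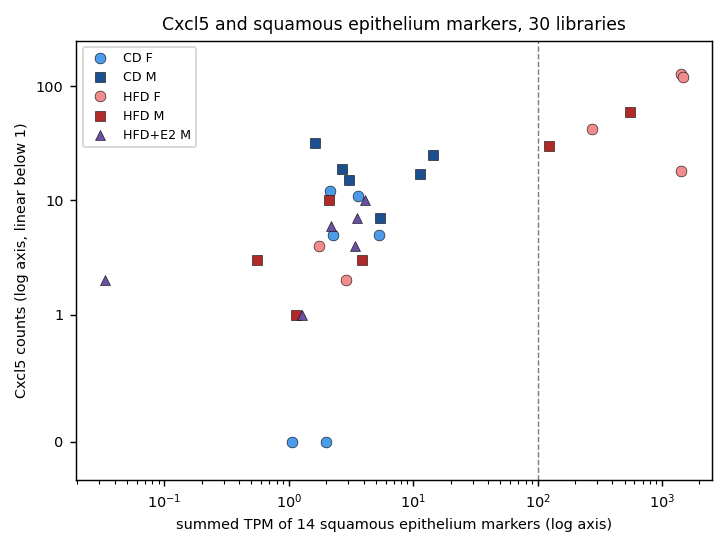
Counts of Cxcl5 (log axis, linear below 1) against the sum of 14 squamous epithelium markers in TPM (log axis), with a point for each of the 30 libraries and colour and shape for the group; the dashed line marks 100 TPM. The 6 libraries right of the line, 4 HFD F and 2 HFD M, have 18 to 128 counts of Cxcl5, while the 24 left of it have 0 to 32.

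The genes most like Cxcl5 within groups were Ppbp (r = 0.85, rho = 0.77), which encodes a platelet chemokine of the CXC type and lies 6893 bases from Cxcl5 on chromosome 5, and Lgals7 and Aqp3 (r = 0.83 for both), which are expressed in keratinocytes. Over the 24 libraries without squamous markers they were 0.35, 0.32 and 0.32. Of the 3 neutrophil markers tested in HFD F vs CD F, 1 was a DEG, Csf3r, the receptor for granulocyte colony-stimulating factor (log2 fold change 1.46, SE 0.38, adjusted p = 0.419). The 8 neutrophil markers summed to 47.8 to 118 TPM in HFD F and 37.8 to 96.5 TPM in CD F, and their part in the Cxcl5 values was not tested. Most of these sums was Ly6g, which alone had 37.3 to 186 TPM over the 30 libraries. In CD F, 6 of the 8 markers had a median under 0.1 TPM, so the sums do not measure neutrophils as a whole. Cxcl14, a chemokine of skin and mucosal epithelia, was the only other chemokine DEG in that comparison (1.10, SE 0.29, adjusted p = 0.430).

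None of the other members passed in HFD F vs CD F. Ccl20 had the next largest estimate, -0.75 on the log2 scale (95% interval -1.72 to 0.22). Without the squamous libraries, which left 2 HFD females, it was 0.08, and Ccl6 went from -0.17 to 0.48 and Ccl9 from -0.17 to 0.25. The intervals of Ccl28 (-0.12 to 0.21) and Cx3cl1 (-0.18 to 0.33) were the narrowest.

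HFD in males changed 0 of the 9 members tested, against 2.90% of 14991 genes, and 0 members had an unadjusted edgeR p under 0.05. No gene at all passed the adjusted threshold in this comparison with edgeR. The largest estimates were 0.40 for Ccl6 (95% interval -0.19 to 0.98) and 0.29 for Ccl8 (-0.84 to 1.41), and Ccl28 had 0.24 (-0.05 to 0.53). They were 0.46, 0.10 and 0.13 without the 2 HFD M libraries with squamous markers. Ccl5, which was not tested, had 2 to 5 counts in HFD M against 0 or 1 in CD M, without overlap, as for 0.374% of the genes tested. The exact permutation p was 0.00216, the smallest that 6 against 6 animals allow, on 17 and 4 counts in all. DESeq2, and edgeR without a filter on low counts, called it a DEG here too, and neither call passed the adjusted threshold. The CD M libraries are the same ones as in the comparison of the sexes on CD, so the Ccl5 differences there and here share their low group.

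Treatment of HFD males with E2 changed 0 of the 8 members tested by the DEG threshold, against 5.87% of 15010 genes, and 0 had an unadjusted edgeR p under 0.05. The adjusted threshold was passed by 0.00666% of the genes. DESeq2 called 3 members, and the HFD M libraries are shared with both comparisons above. Ccl9, a CC chemokine that recruits myeloid cells through CCR1, ranged from 2.32 to 5.39 TPM (median 3.57) in HFD+E2 M and from 1.68 to 4.10 TPM (median 2.96) in HFD M. The log2 fold change was 0.53 (SE 0.26, 95% interval -0.01 to 1.07, edgeR p = 0.0558, adjusted p = 0.496, exact permutation p = 0.115), and the p-value before adjustment was 0.0461 with DESeq2. Cxcl12 had 135 to 627 counts (median 328.5) with E2 and 172 to 321 (median 218) without, for a log2 fold change of 0.43 (SE 0.21, 95% interval -0.01 to 0.88, edgeR p = 0.0568, adjusted p = 0.499, exact permutation p = 0.145). Both groups overlapped for both genes. Without the 2 HFD M libraries with squamous markers, the log2 fold changes were 0.56 for Ccl9 (SE 0.27) and 0.35 for Cxcl12 (SE 0.25).

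Ccl8, a chemokine of tissue macrophages, had 1 to 18 counts with E2 (median 5.5) and 6 to 26 without (median 12.5). The log2 fold change of -1.05 (SE 0.52, 95% interval -2.15 to 0.06, edgeR p = 0.0614, exact permutation p = 0.0779) did not pass, and it was -0.87 (SE 0.56) without those 2 libraries. Cxcl5 had too few counts for the test, with 1 to 10 per animal with E2 and 1 to 59 without, and the 59 and 30 counts of the 2 HFD M libraries with squamous markers made up most of the 106 of that group. DESeq2, which did test Cxcl5, gave -1.95 (SE 0.81, adjusted p = 0.343). Ccl20 (log2 fold change 0.12, 95% interval -0.53 to 0.77), Ccl6 (-0.14, -0.72 to 0.43), Cxcl16 (0.18, -0.25 to 0.61), Cx3cl1 (0.21, -0.11 to 0.52) and Ccl28 (-0.24, -0.52 to 0.05) did not pass either.

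Among the other pathway genes, Ccl27a, a CCR10 ligand like Ccl28, was a DEG and higher with E2 (log2 fold change 0.80, SE 0.25, adjusted p = 0.454), the only one of 9 other chemokines tested. None of 8 receptors, 8 atypical receptors and proteases, or 7 tested genes of the NF-kB pathway was a DEG. The complement genes C1qa (0.74) and C1qb (0.65), made by macrophages, were DEGs and higher with E2 (adjusted p = 0.461 and 0.455), with 9 of 10 macrophage markers above 0 and a median log2 fold change of 0.33. With the macrophage score as a covariate, the log2 fold change of Ccl9 was 0.11 (SE 0.26). Ccl9 was correlated within groups with the macrophage markers (r = 0.53, rho = 0.53) and most closely with Pirb, an inhibitory receptor of myeloid cells (r = 0.81, rho = 0.82).

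**Figure D5:**
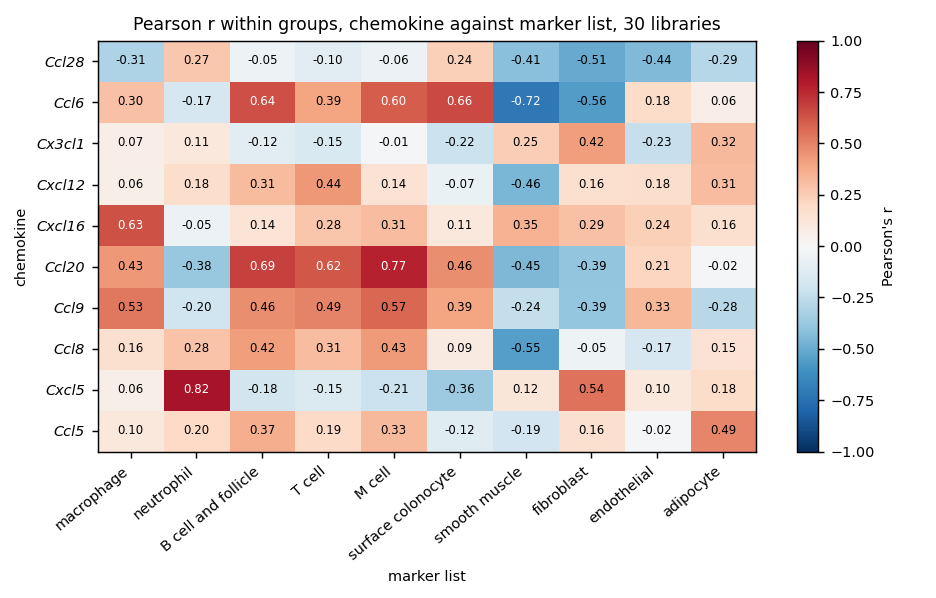
Pearson's r, within groups over the 30 libraries, between each chemokine gene (rows) and the mean log2 CPM of each list of cell type markers except squamous epithelium (columns), from blue (-1) to red (1). The squamous list, not drawn, had r = 0.79 with Cxcl5, or 0.15 over the 24 libraries without squamous markers. Ccl20 has its highest values for M cell (0.77) and B cell and follicle markers (0.69), Cxcl16 for macrophage markers (0.63), Ccl6 its lowest for smooth muscle (-0.72), and Cxcl5 its highest for neutrophil markers (0.82, or 0.58 over the 24 libraries without squamous markers). The neutrophil mean was taken over 5 of the 8 listed genes. S100a8 and S100a9 of that list had a median under 0.1 TPM in every group except HFD F, the group with most of the squamous libraries. Their part in this r was not tested.

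For Ccl28, Cx3cl1 and Cxcl12, the genes most like them were also listed. These genes were picked as the highest of 13714 compared, so their r values are not set against those of the marker lists. Ccl28 was most like Mal2 (r = 0.80, rho = 0.78), a transport protein of epithelial cells, and Scfd1 (r = 0.78), which acts in secretory transport, and its correlation with fibroblast markers was -0.51, or -0.73 without the 6 libraries with squamous markers. Cx3cl1 was most like Cblc (r = 0.85, rho = 0.77), an epithelial ubiquitin ligase, and Erbb2 (r = 0.83), and Cxcl12 was most like Tm6sf1 (r = 0.83, rho = 0.85). The correlations of the sparse genes Ccl5 and Ccl8 are not described.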

How the data were processed

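Colon RNA was depleted of ribosomal RNA and made into stranded libraries per the labels, 1 for each of 30 mice. The authors trimmed the reads with Trim Galore, mapped them with STAR to mm10 (GRCm38), and deposited raw counts per gene from featureCounts and TPM values from StringTie; the strand setting of the counting was not given in the sources used here. Of the members, Ccl6 and Cxcl16 overlap a gene on the other strand with at most 13 counts. All 30 libraries matched their own TPM best, and 16 to 24 gene IDs listed repeatedly in each TPM table were summed. Low genes can be at 0 TPM with counts present. Counts are of reads without molecular identifiers.

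Groups came from the sample titles. Each comparison was fitted to the counts of its 12 libraries (24 for the interaction) with edgeR 4.0.16 in R 4.3.3 (filterByExpr, TMM, robust quasi-likelihood F-test), with p-values adjusted by Benjamini-Hochberg over all genes. The study's p-value threshold was read as unadjusted. Exact two-sided permutation tests used log2 CPM (prior count 2; 924 splits, smallest p 0.00216). Alternatives were DESeq2 1.42.0, its size factors, other filters, all 30 libraries, a replicate block, marker scores as covariates, limma 3.58.1 on log2 TPM (0.1 or 1 added), each library left out, and, chosen after seeing the data, the libraries over 100 TPM of squamous markers left out. The tests were tried on simulated data.

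The 10 members, the marker and pathway lists (155 genes) and the tests were chosen with earlier results of these data known. Named were all members, the 3 genes with the highest r to each within groups (genes of at least 1 mean TPM), and the DEGs of the lists. Coding sequences were from GENCODE M21 and promoters from RefSeq, which held 7 of the 10 members.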

Additional observations from a re-analysis of the deposited data

Results flagged for a closer look

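Among the 50 combinations of a chemokine gene and a group, 5 had 1 animal whose TPM lay far from the other 5 by Dixon's criterion for the gap over the range, where chance gives about 1 in 20. The CD M animal with the highest Ccl20 (replicate 1) had 7.94 TPM, with the next at 3.04, and it also had the highest B cell and follicle markers of that group (58.2 TPM). For Ccl6, HFD F replicate 2 stood high at 81.6 TPM (next 41.8) and HFD+E2 M replicate 4 low at 14.04 TPM (next 28.8). CD F replicate 1 had the lowest Cxcl16, 3.26 TPM with the next at 5.23, and HFD F replicate 6 the highest Ccl5, 2.27 TPM with the next at 0.789.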

How the results depend on the processing

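The count of members past the DEG threshold changed as follows. CD F vs CD M fell from 3 to 1 (Cxcl5) with the B cell and follicle score as a covariate. It was 2 with at least 10 counts in every library and with all 30 libraries (Ccl6 and Ccl20), 2 with the smooth muscle score (Cxcl5 and Cxcl16) and the macrophage score (Ccl20 and Cxcl5), 4 with DESeq2 and without a filter (Ccl5 added), and 3 for each library left out. HFD F vs HFD M fell from 1 to 0 with the B cell and the macrophage scores, rose to 2 with the squamous score (Ccl20 added), with the smooth muscle score (Cx3cl1 added) and without the squamous libraries (Ccl6 and Ccl20 only), and was 0 to 1 with a library left out. HFD F vs CD F fell from 1 to 0 with at least 10 counts in every library, where Cxcl5 is not tested, with the squamous and smooth muscle scores and without the squamous libraries, and was 1 to 2 with a library left out (Ccl20 added without HFD F replicate 6). HFD M vs CD M rose from 0 to 1 with DESeq2 and without a filter (Ccl5), with the squamous score and without the squamous libraries (Cxcl5), and was 0 to 1 with a library left out (Ccl6 without CD M replicate 1). HFD+E2 M vs HFD M, 0 before, gave 3 with DESeq2 (Ccl9, Cxcl5 and Cxcl12), 2 with all 30 libraries and with the smooth muscle score (Ccl9 and Cxcl12), 1 without a filter (Ccl9), 1 with the B cell and with the macrophage score (Ccl8) and 0 to 2 with a library left out, with a call of Ccl8, Ccl9 or Cxcl12 in 9 of 12 fits. The interaction fell from 1 to 0 with at least 10 counts in every library, with the B cell, squamous and smooth muscle scores and without the squamous libraries, and gave 0 to 2 with a library left out (Ccl6 added without HFD F replicate 2, Ccl20 without HFD F replicate 6). The adjusted count for CD F vs CD M was 1 with DESeq2 (Ccl20) and 0 to 2 with a library left out, and for the other comparisons 0 in each fit. Cxcl5 for HFD F vs CD F reversed to -0.98 without the squamous libraries and -0.92 with their score. Beyond what is named, the cause was not tested.

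Replicate numbers did not pair the animals by the rule that each pair correlate over 0.1: 5, 2, 3, 5 and 3 of 6 pairs did so in CD F vs CD M, HFD F vs HFD M, HFD F vs CD F, HFD M vs CD M and HFD+E2 M vs HFD M (range -0.22 to 0.47), and 3, 1, 0, 2 and 3 were closest to their own number. With the replicate block, the adjusted count for CD F vs CD M was 1 (Ccl6, adjusted p = 0.0159 by edgeR), and the DEG count was 0 for HFD F vs CD F, 3 for HFD+E2 M vs HFD M and 0 for the interaction. At 8667177 to 17243712 counts per library, Ccl5, Ccl8 and Cxcl5 had too few counts for small differences to be seen.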
